A study of Homo sapiens with 15 samples.

Results

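The genes described here are 46 components of Wnt signalling: secreted WNT ligands and the enzyme that acylates them, their receptors, their extracellular and intracellular antagonists, and the TCF/LEF transcription factors. They were chosen by gene symbol, with earlier results of these data known. A gene was included where its Ensembl identifier in the expression table carried a listed symbol. Of the 46 genes, 41 were found among the 16604 genes of the table. WNT4, WNT5B, WNT10A, DKK1 and LEF1 were not analysed here.

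WNT proteins are lipid-modified secreted proteins that bind Frizzled receptors together with LRP5 or LRP6, which stabilises beta-catenin and lets it act with TCF/LEF factors on target genes. Some ligands, WNT5A among them, signal mostly through ROR receptors and planar cell polarity proteins without beta-catenin. The pathway is held in check at several levels, by secreted antagonists that trap or inactivate the ligand, by membrane proteins that remove the receptors, and by feedback inhibitors in the cytoplasm. In the ovary and the fallopian tube epithelium, from which high-grade serous carcinoma is thought to arise, Wnt signalling takes part in duct development and in the maintenance of progenitor cells.

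Expression was measured by RNA sequencing of polyA RNA in 15 samples of 5 human cell lines, with 3 biological replicates of each line. OVCAR4, a long-used culture model of high-grade serous ovarian carcinoma, is platinum sensitive in its parental form, labelled Ovcar4Parental. Ov4Cis, resistant to cisplatin, and Ov4Carbo, resistant to carboplatin, were selected from it in rising drug concentrations until the concentration that inhibits growth by 50% (IC50) had increased 2- to 10-fold. Ov4Carbo4 and Ov4Carbo7 are carboplatin-resistant lines that were each grown from a single Ov4Carbo cell, so each stands for 1 clone, and all lines were cultured in vitro in the same serum-containing medium with antibiotics. Whether drug was present at harvest is not given in the sources used here.

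Values are log2 RPKM, the base 2 logarithm of a read density corrected for gene length and library size, so a difference of 1 is a 2-fold change. A gene was called in a comparison at an adjusted p under 0.05 with limma, adjusted over all 16604 genes, and a log2 difference of at least 1 in size. Values below 0 come from few reads and make log2 differences large and uncertain in size. Where 1 of the lines compared has a mean below 0, the difference of a Wnt gene described is therefore also given on the log2(RPKM + 1) scale. Depth is unknown because the table holds no read counts, and precision is judged from the 3 replicates of each line.

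The median value of all genes was 2.77 in every sample, and replicates differed by a root mean square of 0.69 in Ov4Carbo against 0.34 to 0.48 in the other lines. The numbers in the sample titles fall in 2 series, the first with replicate 1 of Ov4Carbo and all samples of both single-cell lines, the second with the parental, Ov4Cis and other Ov4Carbo samples. Differences of Ov4Carbo4 and Ov4Carbo7 from the parental line therefore lie wholly between the series and cannot be told apart from it, while Ov4Cis against parental and Ov4Carbo7 against Ov4Carbo4 lie within 1 series. All 17 serous and epithelial markers were in the table, and their summed RPKM was 1134 to 1324 in parental samples, 504 to 615 in Ov4Cis, 676 to 736 in Ov4Carbo, 758 to 814 in Ov4Carbo4 and 532 to 544 in Ov4Carbo7. Of the 17, 13 were called lower and 1 higher in Ov4Cis, 4 and 1 in Ov4Carbo, 8 and 1 in Ov4Carbo4, and 11 and 0 in Ov4Carbo7. Of all genes 7.41%, 6.93%, 7.7% and 7.75% were called lower in these lines. WT1, a serous lineage marker, was below 0 on average in every line, and PAX8 and SOX17 were high in every line. CDH1, which encodes E-cadherin, was called lower in all 4 lines. It fell by 8.14 in Ov4Cis (-4.56 on the log2(RPKM + 1) scale), 1.75 in Ov4Carbo, 1.01 in Ov4Carbo4 and 2.82 in Ov4Carbo7. Its line mean was below 0 only in Ov4Cis. Of 19 fibroblast, leukocyte and endothelial markers 9 were in the table, and the summed RPKM of the 3 endothelial ones, mostly CDH5, was 6.37 to 7.40 in parental samples, 32.3 to 40.9 in Ov4Cis and 20.7 to 25.2 in Ov4Carbo4. CDH5 alone of the 3 was called higher, by 2.67 in Ov4Cis and 1.96 in Ov4Carbo4, while KDR was called lower in the 3 carboplatin-resistant lines (from -1.77 in Ov4Carbo4 to -2.71 in Ov4Carbo) and VWF in none. KDR had means below 0 in every line and was called lower in none on the log2(RPKM + 1) scale. The fibroblast gene COL1A2 was called lower in all 4 lines (from -4.24 to -5.8, or -1.67 to -1.79 on the log2(RPKM + 1) scale). COL1A1 was called higher in Ov4Carbo4 (1.21), and the other fibroblast markers LUM, PDGFRB and THY1 had means below 0 in every line. CD14, the 1 leukocyte marker in the table, was called higher in Ov4Carbo7 (1.55), but on the log2(RPKM + 1) scale the difference was 0.73 and not called. The part of these marker differences in the Wnt results was not tested.

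Wnt genes differed widely among the lines. The moderated F-test over the 5 lines passed for 37 of the 41 genes, against 76.9% of all genes, and missed for LGR5, DKK3, KREMEN1 and TCF7L2. Against the parental line, 16 of 41 were called in Ov4Cis, 6 higher and 10 lower, where 15.9% of all genes were called, 8.46% higher and 7.41% lower. In Ov4Carbo 17 were called, 4 higher and 13 lower, with 12.7% of all genes called, 5.76% higher and 6.93% lower. Ov4Carbo4 had 16 calls, 9 higher and 7 lower, beside 15.1% of all genes, 7.43% higher and 7.7% lower. Ov4Carbo7 had 20 calls, 5 higher and 15 lower, beside 17% of all genes, 9.26% higher and 7.75% lower. With less weight on low values, on the log2(RPKM + 1) scale, 10 Wnt genes were called in Ov4Cis beside 7.58% of all genes, 8 in Ov4Carbo beside 4.76%, 10 in Ov4Carbo4 beside 6.34%, and 5 in Ov4Carbo7 beside 7.79%. On that scale 4 were higher and 6 lower in Ov4Cis, 2 and 6 in Ov4Carbo, 5 and 5 in Ov4Carbo4, and 2 and 3 in Ov4Carbo7, so the split in Ov4Carbo7 was much less one-sided than on the log2 RPKM scale. The share of Wnt genes called lay above the background in each line, and calls were mostly of lower expression in every resistant line except Ov4Carbo4. As the genes were listed with earlier results of these data known, the higher share is no independent evidence about the set. The median log2 difference of the 41 genes was -0.24 in Ov4Carbo, -0.35 in Ov4Cis, 0.091 in Ov4Carbo4 and -0.66 in Ov4Carbo7, while that of all genes was between 0.016 and 0.066. In Ov4Carbo7 the median was -0.23 after adding 1 to RPKM. These comparisons share the parental samples, and both single-cell lines come from Ov4Carbo, so the comparisons are not independent. In bulk RNA, fewer cells with a transcript and less transcript per cell cannot be told apart.

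**Figure D1:**
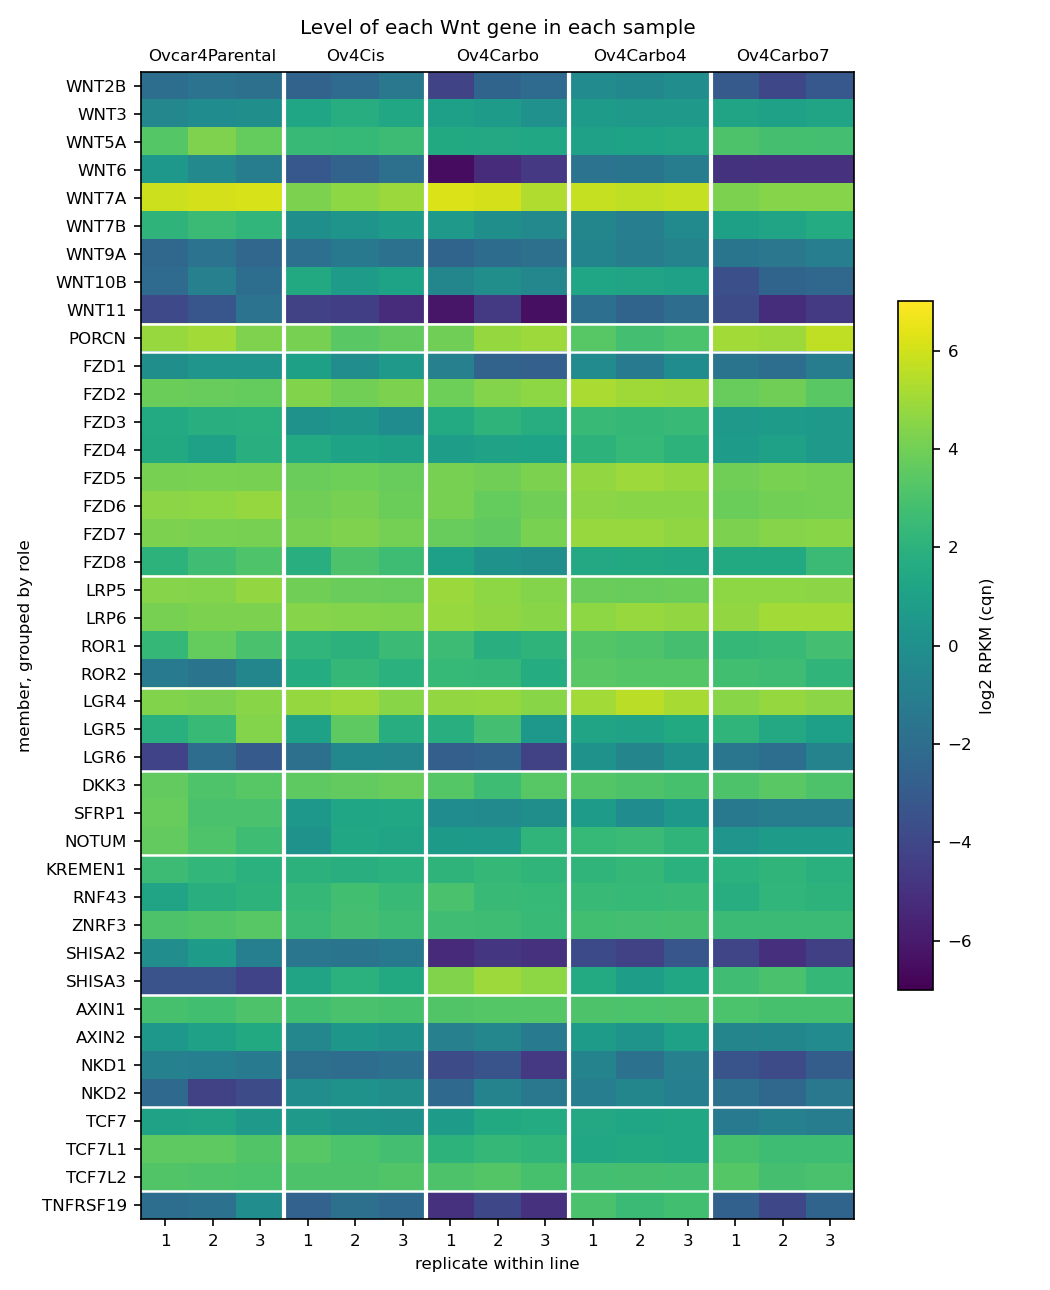
Level of each of the 41 Wnt genes (rows, grouped by role) in each of the 15 samples (columns, 3 replicates per line), with colour showing log2 RPKM. WNT7A is the brightest row, SHISA3 is dark only in the parental line, and TNFRSF19 is bright only in Ov4Carbo4.

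Of the 41 genes, 26 were called in at least 1 resistant line, beside 30.5% of all genes. ROR2, SHISA3 and NKD2 were higher in all 4 resistant lines, a pattern found in 1.73% of all genes. WNT7B, SFRP1 and SHISA2 were lower in all 4, as were 1.65% of all genes. As the single-cell lines come from Ov4Carbo, agreement of all 4 lines does not stand for 4 separate selections. With 1 added to RPKM, the calls of ROR2, SHISA3 and SFRP1 were made in all 4 lines, those of NKD2 and SHISA2 in none, and that of WNT7B in every line except Ov4Carbo7. WNT2B, WNT10B and TNFRSF19 were called in opposite directions in different lines. The call of NKD2 in Ov4Carbo7 ended without Ov4Carbo7 replicate 3 (1.43, adjusted p = 0.0557), parental replicate 2 (1.19, adjusted p = 0.0666) or parental replicate 3 (1.47, adjusted p = 0.0519), and that of SHISA2 in Ov4Cis ended without parental replicate 2 (-0.95, adjusted p = 0.0578).

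Because they were called in 1 direction in every resistant line, the promoters of SHISA3, ROR2, NKD2 and SHISA2 are shown, 5′ to 3′ on the strand of the gene, from 250 bases before to 50 bases after the RefSeq start (build GRCh38.p14). The windows are chr4:42397238-42397537 (plus strand) for SHISA3, chr9:91950179-91950478 (minus strand) for ROR2, chr5:1008552-1008851 (plus strand) for NKD2 and chr13:26051967-26052266 (minus strand) for SHISA2. Capitals mark GC boxes, the letters GGGCGG or their reverse complement CCGCCC, which Sp and KLF factors are known to bind.
SHISA3: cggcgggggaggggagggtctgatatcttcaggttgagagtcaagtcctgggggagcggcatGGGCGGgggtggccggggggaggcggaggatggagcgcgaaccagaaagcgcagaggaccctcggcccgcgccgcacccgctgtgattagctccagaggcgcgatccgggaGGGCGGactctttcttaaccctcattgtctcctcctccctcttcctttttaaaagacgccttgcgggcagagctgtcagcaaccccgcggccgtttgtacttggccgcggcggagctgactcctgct
ROR2: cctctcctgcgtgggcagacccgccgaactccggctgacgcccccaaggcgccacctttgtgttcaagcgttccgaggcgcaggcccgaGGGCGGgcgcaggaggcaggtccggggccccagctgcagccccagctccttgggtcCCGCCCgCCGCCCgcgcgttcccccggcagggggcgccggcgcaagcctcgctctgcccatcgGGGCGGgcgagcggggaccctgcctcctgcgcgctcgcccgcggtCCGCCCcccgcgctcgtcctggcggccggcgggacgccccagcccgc
NKD2: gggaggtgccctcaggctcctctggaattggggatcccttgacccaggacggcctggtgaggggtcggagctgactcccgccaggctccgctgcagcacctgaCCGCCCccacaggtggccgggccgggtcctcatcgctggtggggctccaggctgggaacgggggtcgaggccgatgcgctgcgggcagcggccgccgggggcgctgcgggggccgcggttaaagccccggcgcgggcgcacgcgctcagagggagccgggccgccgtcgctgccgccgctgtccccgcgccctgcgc
SHISA2: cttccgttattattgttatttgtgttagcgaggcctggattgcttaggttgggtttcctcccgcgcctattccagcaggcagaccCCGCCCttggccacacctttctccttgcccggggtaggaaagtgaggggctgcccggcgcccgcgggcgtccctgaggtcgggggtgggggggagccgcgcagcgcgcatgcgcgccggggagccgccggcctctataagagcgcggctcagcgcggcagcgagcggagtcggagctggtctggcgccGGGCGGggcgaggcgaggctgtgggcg

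The SHISA3 window held 2 GC boxes and 26 CG dinucleotides, the ROR2 window 5 and 42, the NKD2 window 1 and 35, and the SHISA2 window 2 and 34. The median window in the RefSeq table held 14 CG dinucleotides, so all 4 windows held more, although 30.1% of all windows held at least as many as that of SHISA3. SHISA2 is the only lower gene shown, since WNT7B and SFRP1 had no window. A window was available for 25 of the 41 Wnt genes (35 windows), whose median was 26. A GC box on either strand occurred in 21 of these 35 windows and in 45.0% of all 35116 windows. The TCF/LEF core letters CTTTGAT, searched on both strands, occurred in 0 of the 35 windows and in 2.62% of all windows. The variant CTTTGTT occurred in 3 of the 35, those of TCF7, TCF7L2 and WNT3, and in 5.2% of all windows. These are matches of letters in a short window and not binding sites.

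Ligands were called in both directions in each resistant line on the log2 RPKM scale. Of the 9 WNT genes measured, 2 were called higher and 5 lower in Ov4Cis (77.8%, beside 15.9% of all genes), 1 higher and 4 lower in Ov4Carbo (55.6%, beside 12.7%), 3 higher and 2 lower in Ov4Carbo4 (55.6%, beside 15.1%), and 1 higher and 6 lower in Ov4Carbo7 (77.8%, beside 17%). Many of these calls were of low genes. With 1 added to RPKM the ligands called numbered 5, 2, 3 and 1 in the same order, beside 7.58%, 4.76%, 6.34% and 7.79% of all genes. WNT7A alone was left in Ov4Carbo7. WNT7A, a ligand of the Müllerian duct and its epithelium, was the most abundant ligand in every line. Its log2 RPKM was 5.94, 6.1 and 6.14 in the parental line, 4.27, 4.64 and 4.88 in Ov4Cis, 6.26, 6.09 and 5.35 in Ov4Carbo, 5.79, 5.68 and 5.78 in Ov4Carbo4 and 4.23, 4.46 and 4.44 in Ov4Carbo7. The 3 Ov4Cis and 3 Ov4Carbo7 samples all lay below every other sample. WNT7A fell by 1.46 (SE 0.21, adjusted p = 0.00014) in Ov4Cis and by 1.68 (SE 0.21, adjusted p = 4.34e-05) in Ov4Carbo7, and the differences were -0.16 (SE 0.21, adjusted p = 0.59) in Ov4Carbo and -0.31 (SE 0.21, adjusted p = 0.265) in Ov4Carbo4. Ov4Carbo7 also lay below its source population Ov4Carbo, by 1.52 (SE 0.21, adjusted p = 0.000176).

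WNT5A, the archetypal ligand of beta-catenin-independent signalling, was the next ligand in abundance in the parental line. Its samples read 3.29, 4.3 and 3.67 in the parental line, 2.42, 2.37 and 2.58 in Ov4Cis, 1.48, 1.46 and 1.37 in Ov4Carbo, 1.03, 1.1 and 1.17 in Ov4Carbo4 and 3.07, 2.88 and 2.84 in Ov4Carbo7. All samples of every resistant line lay below the lowest parental sample. WNT5A fell by 2.65 (SE 0.19, adjusted p = 6.17e-07) in Ov4Carbo4, by 2.32 (SE 0.19, adjusted p = 3.22e-06) in Ov4Carbo and by 1.29 (SE 0.19, adjusted p = 0.000174) in Ov4Cis. In Ov4Carbo7 the difference was -0.82 (SE 0.19, adjusted p = 0.00403), under the size required for a call. Ov4Carbo7 was above Ov4Carbo by 1.49 (SE 0.19, adjusted p = 0.000106), so the single-cell line was nearer to the parental level than the population it came from.

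WNT7B, a close relative of WNT7A, read 2.13, 2.56 and 2.24 in the parental line, -0.045, 0.24 and 0.66 in Ov4Cis, 0.59, -0.015 and -0.42 in Ov4Carbo, -0.58, -1.03 and -0.37 in Ov4Carbo4 and 0.98, 1.18 and 1.61 in Ov4Carbo7. Parental samples were the highest, Ov4Carbo7 came next, and Ov4Carbo4 samples were lowest with some overlap with Ov4Carbo. The fall was 2.97 (SE 0.27, adjusted p = 4.96e-06) in Ov4Carbo4, 2.26 (SE 0.27, adjusted p = 7.06e-05) in Ov4Carbo, 2.02 (SE 0.27, adjusted p = 9.15e-05) in Ov4Cis and 1.05 (SE 0.27, adjusted p = 0.00798) in Ov4Carbo7. In Ov4Carbo4, whose mean was below 0, the value was -1.86 on the log2(RPKM + 1) scale. The call in Ov4Carbo7 rests on single libraries, since without Ov4Carbo7 replicate 1 the difference was -0.91 and without parental replicate 2 it was -0.93, both under the required size.

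WNT3 and WNT10B, ligands that act through beta-catenin, were the ones that rose in Ov4Cis. WNT3 read -0.50, -0.17 and -0.052 in the parental line, 1.31, 1.72 and 1.38 in Ov4Cis, 0.91, 0.76 and 0.086 in Ov4Carbo, 0.71, 0.53 and 0.54 in Ov4Carbo4 and 1.17, 1.01 and 1.15 in Ov4Carbo7. Every resistant sample lay above every parental sample, and the rise was 1.71 (SE 0.19, adjusted p = 2.22e-05) in Ov4Cis and 1.35 (SE 0.19, adjusted p = 0.000141) in Ov4Carbo7, which is 1.03 and 0.77 on the log2(RPKM + 1) scale. The differences in Ov4Carbo, 0.82 (SE 0.19), and Ov4Carbo4, 0.83 (SE 0.19), passed the p threshold but not the required size, and were 0.44 and 0.44 after adding 1 to RPKM. With a term for the title series, estimated from the Ov4Carbo samples alone, the Ov4Carbo7 value was 0.87 and no longer called (adjusted p = 0.0674).

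WNT10B read -2.11, -0.92 and -1.94 in the parental line, 1.53, 0.69 and 1.11 in Ov4Cis, -0.59, -0.058 and -0.50 in Ov4Carbo, 1.28, 1.16 and 1.0 in Ov4Carbo4 and -3.6, -2.5 and -2.26 in Ov4Carbo7. Ov4Cis and Ov4Carbo4 samples were all above Ov4Carbo samples, and Ov4Carbo7 samples were all below the parental ones. It rose by 2.8 (SE 0.37, adjusted p = 7.94e-05) in Ov4Carbo4 and by 2.76 (SE 0.37, adjusted p = 7.92e-05) in Ov4Cis, which is 1.27 and 1.25 after adding 1 to RPKM. In Ov4Carbo the rise was 1.27 (SE 0.37, adjusted p = 0.0186), but only 0.41 on the log2(RPKM + 1) scale, and the call ended without parental replicate 1 (1.05, adjusted p = 0.0668), parental replicate 3 (1.13, adjusted p = 0.0676) or Ov4Carbo replicate 2 (1.11, adjusted p = 0.0674). In Ov4Carbo7 it fell by 1.13 (SE 0.37, adjusted p = 0.0255), -0.21 on the log2(RPKM + 1) scale, and that call ended without Ov4Carbo7 replicate 1 (-0.72, adjusted p = 0.112), without parental replicate 2 (-0.76, adjusted p = 0.115) or with the title series term (-0.82, adjusted p = 0.395).

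WNT2B, WNT6, WNT9A and WNT11 stayed below a line mean of 0 in all 5 lines, with samples between -6.52 and 0.44. WNT6 fell by 5.13 in Ov4Carbo, 4.66 in Ov4Carbo7 and 2.17 in Ov4Cis on the log2 RPKM scale, which is -0.84, -0.83 and -0.63 on the log2(RPKM + 1) scale. WNT2B was called higher in Ov4Carbo4 (1.53) and lower in Ov4Carbo7 (-1.57), and on the log2(RPKM + 1) scale the differences were 0.51 and -0.23. The WNT2B difference in Ov4Carbo7 turned to 0.26 with the title series term (adjusted p = 0.741) and lost its call without Ov4Carbo7 replicate 2 (-1.29, adjusted p = 0.0568), and its call in Ov4Carbo4 was lost without Ov4Carbo4 replicate 3 (1.46, adjusted p = 0.0503). WNT9A was called only in Ov4Carbo4 against the parental line (1.3, or 0.35 on the log2(RPKM + 1) scale). WNT11 was called lower in Ov4Carbo (-2.8), Ov4Cis (-1.68) and Ov4Carbo7 (-1.58), or -0.18, -0.15 and -0.15 after adding 1 to RPKM. Its calls in Ov4Cis and Ov4Carbo7 ended on leaving out any of several single libraries, for example parental replicate 3, without which the values were -1.04 (adjusted p = 0.165) and -0.94 (adjusted p = 0.197), and the call in Ov4Carbo7 also ended with the title series term (-0.93, adjusted p = 0.55).

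Summed over the 9 ligands, RPKM was 88.5 ± 9.53 in the parental line (mean ± SD of 3), 68.4 ± 19.6 in Ov4Carbo, 37.1 ± 5.59 in Ov4Cis, 62.3 ± 2.75 in Ov4Carbo4 and 33.8 ± 1.56 in Ov4Carbo7. WNT7A made up most of each sum, with 75.6% in the parental line, 90.1% in Ov4Carbo, 65.7% in Ov4Cis, 86.3% in Ov4Carbo4 and 61.5% in Ov4Carbo7. The share of WNT5A was 15.6% in the parental line, 4.19% in Ov4Carbo, 15% in Ov4Cis, 3.45% in Ov4Carbo4 and 22.7% in Ov4Carbo7. Ov4Carbo and Ov4Carbo4 thus had the most WNT7A-weighted ligand sets and the smallest WNT5A shares, whereas Ov4Cis and Ov4Carbo7 had small totals. These sums and shares describe the samples and were not tested.

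**Figure D2:**
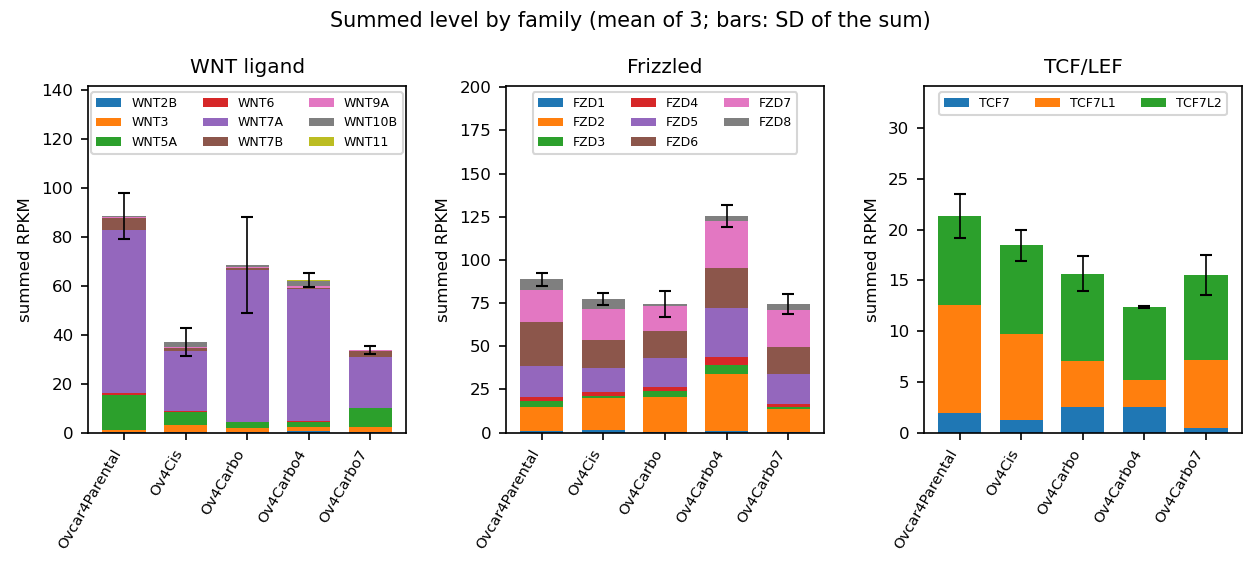
Summed RPKM of the WNT ligands, the Frizzled receptors and the TCF/LEF factors in each line, stacked by gene (mean of 3 replicates, bars show the SD of the sum). WNT7A fills most of the ligand bar in every line, the Frizzled sum is highest in Ov4Carbo4, and the TCF7L1 portion shrinks in Ov4Carbo and Ov4Carbo4.

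PORCN, the endoplasmic reticulum enzyme that attaches the lipid WNT proteins need for secretion, was well expressed in all lines. Its samples read 4.83, 5.06 and 4.32 in the parental line, 4.11, 3.41 and 3.64 in Ov4Cis, 3.99, 4.78 and 4.97 in Ov4Carbo, 3.38, 2.8 and 3.02 in Ov4Carbo4 and 5.07, 4.92 and 5.67 in Ov4Carbo7. The Ov4Carbo4 samples lay below all others, though the highest of them was close to the lowest Ov4Cis sample. PORCN fell by 1.67 (SE 0.30, adjusted p = 0.000806) in Ov4Carbo4 and by 1.02 (SE 0.30, adjusted p = 0.0178) in Ov4Cis. With the title series term the Ov4Carbo4 difference was -0.78 and not called (adjusted p = 0.23). The Ov4Cis call ended without parental replicate 1 (-0.97), parental replicate 2 (-0.85), Ov4Cis replicate 2 (-0.86) or Ov4Cis replicate 3 (-0.98). Ov4Carbo7 exceeded Ov4Carbo4, from the same title series, by 2.16 (SE 0.30, adjusted p = 7.62e-05).

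The 8 Frizzled receptors, which bind WNT ligands through a cysteine-rich domain, had few calls. One was called lower in Ov4Cis (FZD3), 2 lower in Ov4Carbo (FZD1 and FZD8), 1 higher (FZD2) and 1 lower (FZD8) in Ov4Carbo4, and 2 lower in Ov4Carbo7 (FZD1 and FZD3). That is 12.5% in Ov4Cis, under the 15.9% of all genes, and 25% in each other line, beside 12.7%, 15.1% and 17% of all genes. On the log2(RPKM + 1) scale the count was 1 of 8 in Ov4Cis, Ov4Carbo and Ov4Carbo4 and 0 in Ov4Carbo7. The shares of all genes called on that scale were 7.58%, 4.76%, 6.34% and 7.79%. FZD2 read 3.87, 3.72 and 3.7 in the parental line, 4.36, 4.04 and 4.22 in Ov4Cis, 3.93, 4.41 and 4.63 in Ov4Carbo, 5.24, 5.0 and 4.9 in Ov4Carbo4 and 3.75, 3.96 and 3.42 in Ov4Carbo7. All Ov4Carbo4 samples lay above all others, and FZD2 rose by 1.28 (SE 0.18, adjusted p = 0.000152) there. In the other lines the difference was 0.44 (SE 0.18) in Ov4Cis, 0.56 (SE 0.18) in Ov4Carbo and -0.054 (SE 0.18) in Ov4Carbo7, and none was called.

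FZD3, a receptor known from planar polarity and axon guidance, read 1.56, 1.79 and 1.88 in the parental line, 0.19, 0.41 and -0.17 in Ov4Cis, 1.56, 2.09 and 1.71 in Ov4Carbo, 2.45, 2.32 and 2.46 in Ov4Carbo4 and 0.54, 0.69 and 0.58 in Ov4Carbo7. Ov4Cis and Ov4Carbo7 samples were low and did not overlap with the other 3 lines. FZD3 fell by 1.6 (SE 0.16, adjusted p = 7.42e-06) in Ov4Cis and by 1.14 (SE 0.16, adjusted p = 0.00012) in Ov4Carbo7, the latter -0.79 on the log2(RPKM + 1) scale. With the title series term, the Ov4Carbo7 difference was -0.80 and lost its call (adjusted p = 0.0514). Within 1 title series, Ov4Carbo7 was below Ov4Carbo4 by 1.81 (SE 0.16, adjusted p = 2.44e-06).

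FZD8 read 2.05, 2.7 and 3.17 in the parental line, 1.84, 3.09 and 2.67 in Ov4Cis, 0.88, 0.20 and -0.064 in Ov4Carbo, 1.44, 1.5 and 1.39 in Ov4Carbo4 and 1.49, 1.49 and 2.57 in Ov4Carbo7. All Ov4Carbo samples were below those of every other line, and FZD8 fell by 2.3 (SE 0.39, adjusted p = 0.000786) there. In Ov4Carbo4 it fell by 1.2 (SE 0.39, adjusted p = 0.0271), a call that ended on leaving out any 1 of the 3 Ov4Carbo4 samples, parental replicate 2 or parental replicate 3, with values from -1.22 to -0.93. The differences were -0.10 (SE 0.39, adjusted p = 0.871) in Ov4Cis and -0.79 (SE 0.39, adjusted p = 0.121) in Ov4Carbo7. FZD1, whose samples ran from -2.70 to 0.95, fell by 2.26 in Ov4Carbo and 1.75 in Ov4Carbo7, or -0.76 and -0.67 on the log2(RPKM + 1) scale.

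FZD4, FZD5, FZD6 and FZD7 were called in no resistant line against the parental line. FZD5, FZD6 and FZD7 lay between 3.59 and 4.96 in all 15 samples, and FZD4 lay between 0.57 and 2.36. FZD6 was lower in Ov4Cis (-0.67 (SE 0.12, adjusted p = 0.000662)), in Ov4Carbo (-0.73 (SE 0.12, adjusted p = 0.000557)) and in Ov4Carbo7 (-0.67 (SE 0.12, adjusted p = 0.000619)) by less than the size a call needs. The summed Frizzled RPKM was 88.8 ± 3.87 in the parental line, 74.6 ± 7.58 in Ov4Carbo, 77.5 ± 3.58 in Ov4Cis, 125.4 ± 6.42 in Ov4Carbo4 and 74.6 ± 5.62 in Ov4Carbo7. The leading receptor by level was FZD6 in the parental line (28.4% of the sum), FZD2 in Ov4Cis (24%), Ov4Carbo (27.2%) and Ov4Carbo4 (26.4%), and FZD7 in Ov4Carbo7 (28.4%).

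Among the co-receptors, ROR2, a receptor tyrosine kinase-like protein that binds WNT5A, was called in every resistant line. ROR2 read -1.24, -1.63 and -0.58 in the parental line, 1.65, 2.32 and 1.93 in Ov4Cis, 2.37, 2.33 and 1.66 in Ov4Carbo, 3.41, 3.29 and 3.29 in Ov4Carbo4 and 2.77, 2.66 and 2.17 in Ov4Carbo7. The parental samples were all below 0 and all 12 resistant samples were above 1.6, with Ov4Carbo4 samples highest. It rose by 4.48 (SE 0.28, adjusted p = 2.08e-07) in Ov4Carbo4, 3.68 (SE 0.28, adjusted p = 9.37e-07) in Ov4Carbo7, 3.27 (SE 0.28, adjusted p = 4.11e-06) in Ov4Carbo and 3.11 (SE 0.28, adjusted p = 2.56e-06) in Ov4Cis. On the log2(RPKM + 1) scale these rises were 2.92, 2.21, 1.87 and 1.75. The level of WNT5A exceeded that of ROR2 by 4.90 ± 0.90 log2 RPKM units in the parental line, by 0.50 ± 0.39 in Ov4Cis and by 0.40 ± 0.24 in Ov4Carbo7, while the difference was -0.68 ± 0.34 in Ov4Carbo and -2.23 ± 0.13 in Ov4Carbo4 (SD of 3 samples, a description).

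LRP5, LRP6 and ROR1 were called in none of the 4 comparisons with the parental line. LRP5 and LRP6, the beta-catenin branch co-receptors, lay between 3.74 and 5.07 in every sample. LRP6 was above the parental line in Ov4Carbo7 by 0.75 (SE 0.12, adjusted p = 0.000232) and LRP5 was below it in Ov4Carbo4 by -0.72 (SE 0.13) and in Ov4Cis by -0.69 (SE 0.13), all under the size for a call. ROR1, the relative of ROR2, ranged from 1.77 to 3.68. The ROR2 level stood 4.14 log2 units below that of ROR1 in the parental line (a difference of -4.14 ± 1.01), and the mean difference was between -0.29 and 0.25 in the resistant lines.

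LGR4, LGR5 and LGR6 are receptors for R-spondins, secreted proteins that strengthen Wnt signals by sparing Frizzled receptors from removal. LGR4 was the main one, with 71.3% of the summed RPKM of the 3 in the parental line and 83.2% to 91.8% in the resistant lines, and its samples lay between 4.26 and 5.54. LGR5, a stem cell marker, varied strongly between replicates (0.46 to 4.39 over all samples), and its F-test missed the threshold (adjusted p = 0.303). LGR6 had line means from -3.20 to -0.086. It was called higher in Ov4Cis (2.14), Ov4Carbo4 (2.99) and Ov4Carbo7 (1.68), or 0.45, 0.78 and 0.29 on the log2(RPKM + 1) scale. Without parental replicate 1 the Ov4Cis and Ov4Carbo7 values were 1.58 (adjusted p = 0.0669) and 1.12 (adjusted p = 0.166). The Ov4Cis call also ended without Ov4Cis replicate 2 (1.90) or 3 (1.94), the Ov4Carbo7 call without Ov4Carbo7 replicate 1 (1.72) or 3 (1.35) or parental replicate 3 (1.69), and with the title series term LGR6 was called in neither Ov4Carbo4 (2.36, adjusted p = 0.14) nor Ov4Carbo7 (1.04, adjusted p = 0.517).

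**Figure D3:**
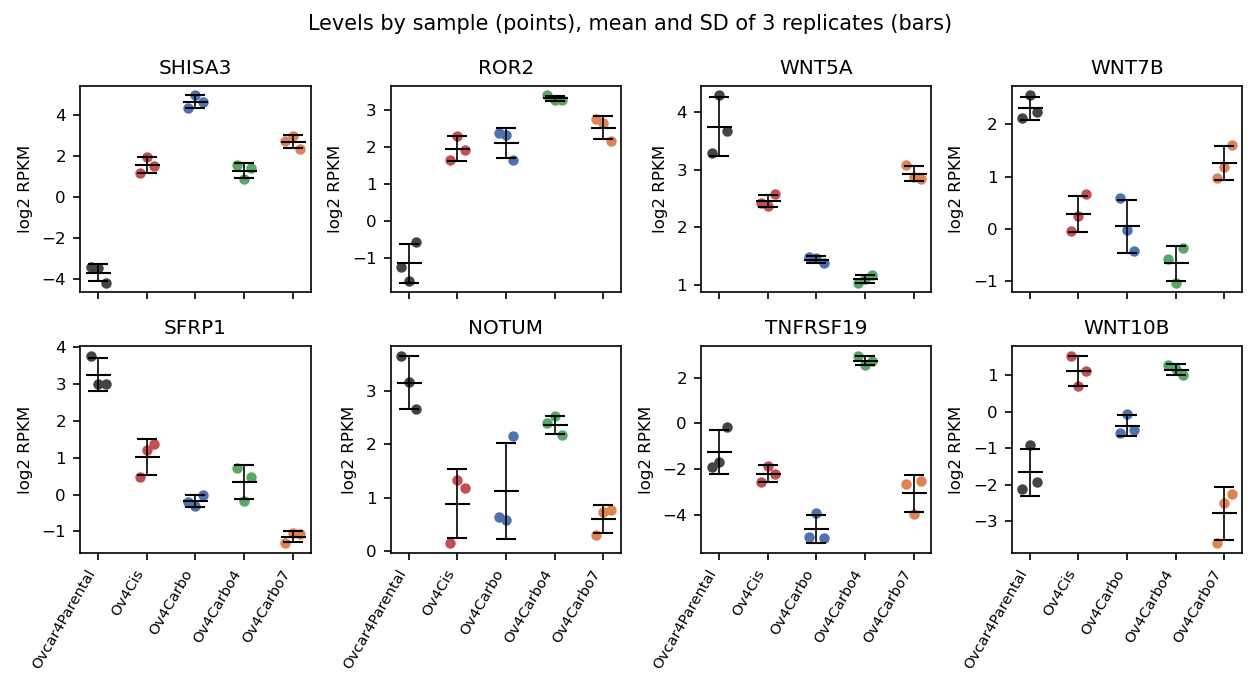
Log2 RPKM of 8 Wnt genes in each sample (points), with the mean and SD of the 3 replicates of each line. The parental points are lowest for SHISA3 and ROR2 and highest for WNT5A, WNT7B and SFRP1, whereas TNFRSF19 and WNT10B move in opposite directions in Ov4Carbo4 and Ov4Carbo7.

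The secreted antagonists that were called were all lower in the resistant lines. SFRP1, a secreted Frizzled-related protein that binds WNT ligands outside the cell, read 3.77, 2.99 and 2.99 in the parental line, 0.47, 1.21 and 1.37 in Ov4Cis, -0.19, -0.32 and -0.0031 in Ov4Carbo, 0.72, -0.18 and 0.48 in Ov4Carbo4 and -1.32, -1.05 and -1.06 in Ov4Carbo7. The parental samples stood above all others, and the 3 Ov4Carbo7 samples stood below all others. SFRP1 fell by 4.39 (SE 0.28, adjusted p = 2.9e-07) in Ov4Carbo7, 3.42 (SE 0.28, adjusted p = 3.47e-06) in Ov4Carbo, 2.91 (SE 0.28, adjusted p = 7.6e-06) in Ov4Carbo4 and 2.23 (SE 0.28, adjusted p = 5.41e-05) in Ov4Cis. Where the line mean was below 0, in Ov4Carbo7 and Ov4Carbo, the values on the log2(RPKM + 1) scale were -2.86 and -2.48. Between the 2 single-cell lines, SFRP1 was lower in Ov4Carbo7 by 1.48 (SE 0.28, adjusted p = 0.000832), or -0.65 after adding 1 to RPKM.

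NOTUM, a secreted carboxylesterase that removes the lipid from WNT proteins and is itself a target of the pathway, read 3.66, 3.17 and 2.66 in the parental line, 0.14, 1.33 and 1.19 in Ov4Cis, 0.63, 0.59 and 2.16 in Ov4Carbo, 2.4, 2.53 and 2.18 in Ov4Carbo4 and 0.29, 0.73 and 0.76 in Ov4Carbo7. Parental samples were above all resistant samples, and Ov4Carbo replicate 3 stood apart from the other replicates of its line. NOTUM fell by 2.57 (SE 0.42, adjusted p = 0.000359) in Ov4Carbo7, 2.28 (SE 0.42, adjusted p = 0.000942) in Ov4Cis and 2.04 (SE 0.42, adjusted p = 0.00285) in Ov4Carbo. In Ov4Carbo4 the difference was -0.80 (SE 0.42, adjusted p = 0.154). The call in Ov4Carbo7 ended with the title series term (-1.82, adjusted p = 0.092). DKK3, a secreted protein of the Dickkopf family, lay between 2.67 and 3.73 in all samples, and its F-test missed the threshold (adjusted p = 0.0802).

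Of the 5 membrane antagonists, SHISA3 and SHISA2 were called in every resistant line and in opposite directions. Shisa proteins hold Frizzled receptors in the endoplasmic reticulum and so lower the response to WNT ligands. SHISA3 read -3.42, -3.43 and -4.17 in the parental line, 1.17, 1.96 and 1.51 in Ov4Cis, 4.34, 4.94 and 4.63 in Ov4Carbo, 1.56, 0.85 and 1.4 in Ov4Carbo4 and 2.71, 2.99 and 2.35 in Ov4Carbo7, with a parental mean of -3.67 ± 0.43. No resistant sample overlapped with a parental one, Ov4Carbo samples were the highest, and both single-cell lines were lower than the population they came from. Relative to Ov4Carbo, SHISA3 fell by 3.36 (SE 0.28, adjusted p = 3.19e-06) in Ov4Carbo4 and fell by 1.95 (SE 0.28, adjusted p = 0.000219) in Ov4Carbo7. Against the parental line the largest rise was in Ov4Carbo, from a mean of -3.67 to 4.64, or 4.58 on the log2(RPKM + 1) scale. The rise was 6.36 (SE 0.28, adjusted p = 1.51e-08) in Ov4Carbo7 and 5.22 (SE 0.28, adjusted p = 3.38e-08) in Ov4Cis, or 2.78 and 1.87 on the log2(RPKM + 1) scale, since parental values were far below 0. It was smallest in Ov4Carbo4, with a mean of 1.27.

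SHISA2 read -0.13, 0.75 and -0.94 in the parental line, -1.51, -1.63 and -1.31 in Ov4Cis, -5.27, -4.77 and -5.01 in Ov4Carbo, -3.87, -4.32 and -3.26 in Ov4Carbo4 and -4.1, -5.04 and -4.35 in Ov4Carbo7. Parental samples were highest and Ov4Cis next, and the carboplatin-selected lines were all under -3. SHISA2 fell by 4.91 (SE 0.38, adjusted p = 2.4e-06) in Ov4Carbo, 4.39 (SE 0.38, adjusted p = 2.82e-06) in Ov4Carbo7, 3.71 (SE 0.38, adjusted p = 1.23e-05) in Ov4Carbo4 and 1.38 (SE 0.38, adjusted p = 0.0134) in Ov4Cis. The parental level was itself low, so the falls on the log2(RPKM + 1) scale were between -0.95 and -0.55. SHISA3 minus SHISA2, a description, went from -3.57 ± 0.54 in the parental line to 9.65 ± 0.048 in Ov4Carbo.

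RNF43 and ZNRF3, related ubiquitin ligases that remove Frizzled receptors from the cell surface, and KREMEN1, a receptor for Dickkopf proteins, were not called in any comparison. RNF43 was higher than parental by 0.91 (SE 0.23, adjusted p = 0.00866) in Ov4Carbo and 0.84 (SE 0.23, adjusted p = 0.0108) in Ov4Cis, and ZNRF3 had differences of -0.65 (SE 0.10, adjusted p = 0.0003) in Ov4Carbo7 and -0.59 (SE 0.10, adjusted p = 0.00112) in Ov4Carbo, all under the size required. The pair thus differed from the parental line with opposite signs.

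Among the cytoplasmic inhibitors, AXIN2, a scaffold of the beta-catenin destruction complex that is widely used as a readout of the pathway, read 0.49, 1.0 and 1.51 in the parental line, -0.54, 0.41 and 0.17 in Ov4Cis, -0.90, -0.51 and -1.31 in Ov4Carbo, 0.67, 0.27 and 1.01 in Ov4Carbo4 and -0.61, -0.58 and -0.27 in Ov4Carbo7. It was lower by 1.91 (SE 0.31, adjusted p = 0.00058) in Ov4Carbo and by 1.49 (SE 0.31, adjusted p = 0.00199) in Ov4Carbo7, which is -0.97 and -0.82 on the log2(RPKM + 1) scale. In Ov4Cis the difference was -0.99 (SE 0.31, adjusted p = 0.0243) and in Ov4Carbo4 -0.35 (SE 0.31, adjusted p = 0.405), and the Ov4Carbo7 call ended with the title series term (-1.49, adjusted p = 0.0795). AXIN1, the constitutive scaffold, lay between 2.76 and 3.33.

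NKD1 and NKD2, which bind Dishevelled and damp the signal, moved in opposite directions in Ov4Carbo and Ov4Carbo7 at low levels. NKD1 had samples from -4.65 to -0.73 and fell by 2.93 in Ov4Carbo and 2.33 in Ov4Carbo7, or -0.49 and -0.44 on the log2(RPKM + 1) scale. NKD2 read -2.23, -4.32 and -3.76 in the parental line, -0.16, 0.12 and -0.078 in Ov4Cis, -2.21, -0.73 and -1.4 in Ov4Carbo, -1.0, -0.56 and -0.93 in Ov4Carbo4 and -1.71, -2.3 and -1.4 in Ov4Carbo7. It rose by 3.4 (SE 0.47, adjusted p = 0.000111) in Ov4Cis, 2.6 (SE 0.47, adjusted p = 0.000869) in Ov4Carbo4, 1.99 (SE 0.47, adjusted p = 0.00654) in Ov4Carbo and 1.63 (SE 0.47, adjusted p = 0.0143) in Ov4Carbo7. On the log2(RPKM + 1) scale the rises were 0.83, 0.50, 0.33 and 0.22, and Ov4Carbo7 samples overlapped with the parental ones.

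The TCF/LEF factors bind DNA and recruit beta-catenin. TCF7L1, which acts mainly as a repressor of Wnt targets, read 3.5, 3.51 and 3.2 in the parental line, 3.36, 3.01 and 2.81 in Ov4Cis, 2.05, 2.34 and 2.14 in Ov4Carbo, 1.37, 1.48 and 1.41 in Ov4Carbo4 and 2.91, 2.67 and 2.65 in Ov4Carbo7. The Ov4Carbo and Ov4Carbo4 samples lay below all samples of the other lines, with Ov4Carbo4 lowest. TCF7L1 fell by 1.98 (SE 0.14, adjusted p = 7.28e-07) in Ov4Carbo4 and 1.23 (SE 0.14, adjusted p = 5.75e-05) in Ov4Carbo. In Ov4Carbo7 it differed by -0.66 (SE 0.14, adjusted p = 0.00289), under the required size, and in Ov4Cis by -0.34 (SE 0.14, adjusted p = 0.0852).

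TCF7 read 1.06, 1.19 and 0.59 in the parental line, 0.53, 0.25 and 0.15 in Ov4Cis, 0.66, 1.5 and 1.59 in Ov4Carbo, 1.47, 1.25 and 1.32 in Ov4Carbo4 and -1.23, -0.86 and -1.06 in Ov4Carbo7. Only the Ov4Carbo7 samples were below 0. TCF7 fell by 2.0 (SE 0.23, adjusted p = 2.28e-05) in Ov4Carbo7, -0.99 on the log2(RPKM + 1) scale, and Ov4Carbo7 was below Ov4Carbo4 by 2.4 (SE 0.23, adjusted p = 4.3e-06), or -1.25 on that scale. TCF7L2 was level, between 2.83 and 3.29 in all samples, and its F-test missed the threshold (adjusted p = 0.151). With TCF7L1 lower, TCF7L2 held 57.8% of the summed TCF/LEF RPKM in Ov4Carbo4 against 41.2% in the parental line, and TCF7L1 held 21.6% against 49.7%.

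TNFRSF19, also called TROY, is a TNF receptor family member that is a Wnt target and marks some stem cells. It read -1.92, -1.71 and -0.14 in the parental line, -2.58, -1.85 and -2.21 in Ov4Cis, -4.98, -3.94 and -5.01 in Ov4Carbo, 2.95, 2.55 and 2.74 in Ov4Carbo4 and -2.68, -3.99 and -2.5 in Ov4Carbo7. The Ov4Carbo4 samples were all above 2.5 and every other sample was below 0. TNFRSF19 rose by 4.0 (SE 0.49, adjusted p = 4.48e-05) in Ov4Carbo4 and fell by 3.39 (SE 0.49, adjusted p = 0.000248) in Ov4Carbo and by 1.8 (SE 0.49, adjusted p = 0.00995) in Ov4Carbo7. On the log2(RPKM + 1) scale these were 2.4, -0.49 and -0.37, so the falls are small in absolute level. The Ov4Carbo7 call ended with the title series term (-1.30, adjusted p = 0.303).

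**Figure D4:**
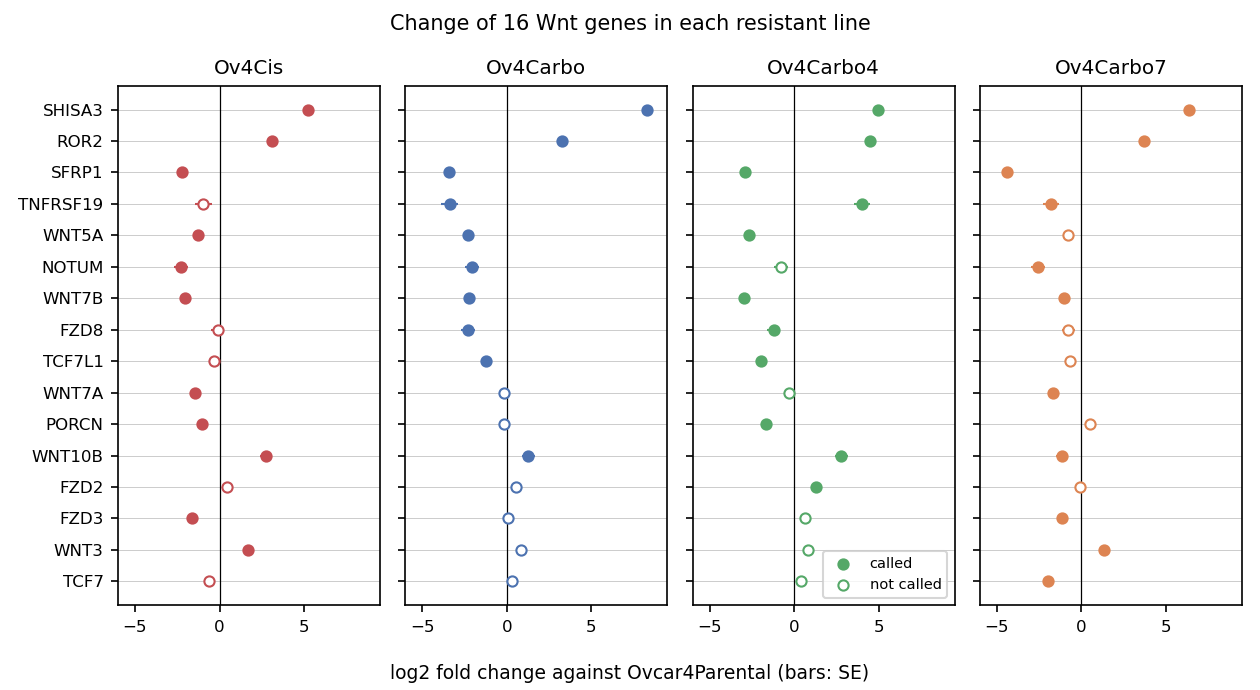
Log2 fold change of 16 Wnt genes against the parental line in each resistant line (points, bars show the SE; filled points were called, open points were not). SHISA3 and ROR2 lie to the right and SFRP1 and WNT7B to the left in all 4 panels, while TNFRSF19 lies to the right in Ov4Carbo4 and to the left in Ov4Carbo and Ov4Carbo7.

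The single-cell lines were set against Ov4Carbo and against each other. Ov4Carbo4 had 17 of the 41 Wnt genes called against Ov4Carbo, 15 higher and 2 lower, where 14.2% of all genes were called, 7.58% higher and 6.64% lower. That excess of higher genes was not seen on the log2(RPKM + 1) scale, with 2 higher (ROR2 and TNFRSF19) and 2 lower, beside 5.45% of all genes called. The 2 lower genes were SHISA3 and PORCN, and the PORCN call was lost with the title series term (-0.92, adjusted p = 0.0804). On the log2 RPKM scale the ROR2 difference was 1.21. Its call was lost with the title series term (0.96, adjusted p = 0.0916) and without Ov4Carbo replicate 3 (0.98, under the required size). All 3 Ov4Carbo4 samples stood above all 3 Ov4Carbo samples in 7 of the 8 Frizzled genes, as they did in 27.2% of all genes. FZD4 was called there, higher by 1.16 (SE 0.21, adjusted p = 0.000951), as were FZD8, by 1.1, and FZD1, by 1.53 (0.43 after adding 1 to RPKM). The calls of FZD8 and FZD1 each ended without Ov4Carbo replicate 3 (0.90, adjusted p = 0.117, and 1.2, adjusted p = 0.0676) and without several other single libraries, and with the title series term (0.56, adjusted p = 0.458, and 0.37, adjusted p = 0.592). TNFRSF19 was higher by 7.39 (SE 0.49, adjusted p = 6.07e-07). After adding 1 to RPKM its difference was 2.89 and that of SHISA3 -2.92.

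Ov4Carbo7 had 10 Wnt genes called against Ov4Carbo, 5 higher and 5 lower, where 13.3% of all genes were called, 7.72% higher and 5.62% lower. The count was 5 on the log2(RPKM + 1) scale, beside 4.96% of all genes. On the log2 RPKM scale the calls of TNFRSF19, LGR6, FZD8 and WNT7B (higher) and FZD3 (lower) ended with the title series term. Those of TNFRSF19 (1.40, adjusted p = 0.0729), LGR6 (1.25, adjusted p = 0.135) and WNT7B (0.97, under the required size) also ended without Ov4Carbo replicate 3. Between the single-cell lines, within 1 title series, Ov4Carbo7 had 19 calls against Ov4Carbo4, 5 higher and 14 lower, where 20.9% of all genes were called, 11.1% higher and 9.86% lower. The higher genes were WNT5A, WNT7B, PORCN, SHISA3 and TCF7L1. Lower were the ligands WNT2B, WNT6, WNT7A, WNT10B and WNT11, the receptors FZD2, FZD3 and FZD4, the antagonists SFRP1 and NOTUM, the inhibitors AXIN2 and NKD1, and TCF7 and TNFRSF19. Of the Wnt genes 13 were called on the log2(RPKM + 1) scale, 5 higher and 8 lower, beside 10.5% of all genes. The AXIN2 call ended without Ov4Carbo4 replicate 3 (-0.96).

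Ov4Cis and Ov4Carbo, selected with different drugs, differed in 14 Wnt genes, 11 higher and 3 lower in Ov4Cis, where 13.8% of all genes were called, 7.88% higher and 5.9% lower. The excess of higher genes did not hold on the log2(RPKM + 1) scale, where 1 was called higher (FZD8) and 3 lower, beside 5.77% of all genes called. The lower genes were WNT7A (-1.31), FZD3 (-1.64) and SHISA3 (-3.09). FZD8 was higher in Ov4Cis by 2.2 (SE 0.39, adjusted p = 0.000926) and WNT10B by 1.49 (SE 0.37, adjusted p = 0.00795), the latter 0.84 on the log2(RPKM + 1) scale. WNT5A was higher by 1.02 (SE 0.19, adjusted p = 0.00134), a call that ended without Ov4Cis replicate 3 (0.96) or Ov4Carbo replicate 3 (0.99).

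Of 68 other genes of the pathway, 48 were in the table. Against the parental line 10 of them were called in Ov4Cis (5 higher, 5 lower), 9 in Ov4Carbo (1 higher, 8 lower), 7 in Ov4Carbo4 (3 higher, 4 lower) and 12 in Ov4Carbo7 (1 higher, 11 lower). These are 20.8%, 18.8%, 14.6% and 25% of the 48, beside 15.9%, 12.7%, 15.1% and 17% of all genes, so the share in Ov4Carbo4 was no higher than the background. With 1 added to RPKM the counts were 5, 5, 4 and 8, beside 7.58%, 4.76%, 6.34% and 7.79% of all genes. The 11 core intracellular genes, which include CTNNB1, the gene of beta-catenin, had 0 calls in all 4 lines with limma, and their log2 differences ran from -0.89 to 0.81. CTNNB1 itself differed by -0.18 (SE 0.15, adjusted p = 0.389) in Ov4Cis, -0.55 (SE 0.15, adjusted p = 0.0157) in Ov4Carbo, -0.34 (SE 0.15) in Ov4Carbo4 and -0.19 (SE 0.15) in Ov4Carbo7. The 9 reported targets had 4 calls in Ov4Cis (2 higher, 2 lower), 3 in Ov4Carbo and 1 in Ov4Carbo4 (all lower). In Ov4Carbo7 they had 3 calls (1 higher, 2 lower). These are 44.4%, 33.3%, 11.1% and 33.3% of the 9, beside 15.9%, 12.7%, 15.1% and 17% of all genes. With 1 added to RPKM the calls numbered 2, 1, 1 and 2, beside 7.58%, 4.76%, 6.34% and 7.79%. Among these targets MYC and CCND1 were called in no line, with samples from 5.09 to 6.27 and from 5.70 to 6.94.

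Of 9 planar cell polarity genes, 2 were called lower in Ov4Cis, 2 lower in Ov4Carbo, 2 lower and 1 higher in Ov4Carbo4 and 4 lower in Ov4Carbo7. Called lower among all genes were 7.41%, 6.93%, 7.7% and 7.75% in the same order, and 7.43% were called higher in Ov4Carbo4. With 1 added to RPKM the calls numbered 1, 2, 1 and 3, all lower. On that scale 7.58%, 4.76%, 6.34% and 7.79% of all genes were called. PRICKLE1, a cytoplasmic polarity protein, had line means of 4.73 ± 0.16 (SD of 3) in the parental line, 1.6 ± 0.47 in Ov4Carbo, 3.89 ± 0.24 in Ov4Cis, 2.9 ± 0.19 in Ov4Carbo4 and 2.58 ± 0.16 in Ov4Carbo7. It fell by 3.13 (SE 0.21, adjusted p = 7.56e-07) in Ov4Carbo, 2.15 (SE 0.21, adjusted p = 7.1e-06) in Ov4Carbo7 and 1.83 (SE 0.21, adjusted p = 3e-05) in Ov4Carbo4. DAAM1, an actin-assembling formin that binds Dishevelled, fell by 2.03 (SE 0.19, adjusted p = 5.21e-06) in Ov4Carbo7 and 1.21 (SE 0.19, adjusted p = 0.000522) in Ov4Carbo. CELSR2, an atypical cadherin of the same list, and PTK7, a polarity receptor listed with the other receptors, both fell in Ov4Cis, by 1.63 and 1.46, and in Ov4Carbo7, by 1.6 and 1.09. The PTK7 difference in Ov4Carbo7 was under the required size without Ov4Carbo7 replicate 3 (-0.97) or with the title series term (-0.96).

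CD44, a hyaluronan receptor and reported Wnt target, rose in Ov4Cis by 1.23 (SE 0.41, adjusted p = 0.0327) and in Ov4Carbo7 by 1.09 (SE 0.41, adjusted p = 0.0487), and fell in Ov4Carbo by 1.39 (SE 0.41, adjusted p = 0.0211) and in Ov4Carbo4 by 2.3 (SE 0.41, adjusted p = 0.000794). Of these, the Ov4Carbo4 call held with each library left out in turn, whereas those in Ov4Cis and Ov4Carbo7 ended without parental replicate 1 (1.00, adjusted p = 0.12, and 0.85, adjusted p = 0.158), parental replicate 2 or any 1 of the 3 samples of the resistant line. The call in Ov4Carbo ended without Ov4Carbo replicate 3 (-0.93, adjusted p = 0.077) or replicate 2 (-1.27, adjusted p = 0.0673), or parental replicate 2 (-1.39, adjusted p = 0.0552) or 3 (-1.15, adjusted p = 0.0834). With the title series term the Ov4Carbo7 difference of CD44 turned to -0.64 (adjusted p = 0.327). GPC4, a cell surface proteoglycan that can bind WNT ligands, rose in Ov4Cis by 1.05 (SE 0.29, adjusted p = 0.0132) and fell in Ov4Carbo by 1.54 (SE 0.29, adjusted p = 0.00174) and in Ov4Carbo7 by 1.31 (SE 0.29, adjusted p = 0.0031). The rise ended without parental replicate 1 (0.87), Ov4Cis replicate 2 (0.88) or Ov4Cis replicate 3 (0.87). TLE1, a co-repressor that TCF factors recruit, fell in Ov4Carbo by 1.35 (SE 0.18, adjusted p = 0.000155). SOX9, a target and modulator of beta-catenin, fell by 2.72 in Ov4Carbo7, 2.1 in Ov4Cis and 1.17 in Ov4Carbo, or -1.28, -1.1 and -0.70 on the log2(RPKM + 1) scale.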

How the data were processed

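Total RNA from cultured cells was made into polyA libraries, per the labels' protocols. The values are log2 RPKM deposited by the authors after conditional quantile normalization (cqn), as the name of the table states. The rule of a threshold that the name also mentions is not given in the sources used here. BWA 0.7.15-r1140, HTSeq and the builds hg19 and GRCh37 are named in the submitters' processing notes, without a role, and the annotation is not given in the sources used here. Base 2 was checked by summing 2 to the value times exonic length, which gave 1.56 to 1.65 times the RPKM total and would give 9.03 to 9.97 times with base e. Because cqn aligns the samples' distributions, differences in total RNA are not measurable. The table has 0 missing values and 0 identical sample pairs.

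Ensembl identifiers were paired with symbols for 16448 of 16604 genes. With limma 3.58.1 (R 4.3.3, two-sided), a model with 1 coefficient per line was fitted to the whole table, Benjamini-Hochberg adjustment covered the 16604 genes within each of 8 comparisons, and the model was tested on simulated data. Values in every sample are given for Wnt genes called in at least 1 resistant line with a line mean of at least log2 RPKM 1 (16 genes). SHISA2, NKD2 and AXIN2 were added for their direction in all lines or their role, after their values were seen. For other pathway genes the rule passed 11, of which the 8 with the largest changes are named, and CTNNB1, MYC and CCND1 were added after their values were seen. The members and lists were chosen with earlier results of these data known. Alternatives were a variance trend, quantile normalization, median centring, a filter on mean log2 RPKM 1, pseudocounts of 1 and 0.1, only the 2 lines compared, a replicate block, a title series term, an adjusted p under 0.01 and leaving out each replicate. Promoter windows were read from a RefSeq table of another build than the authors', so no coordinates were joined to the data. Tables and figures used Python 3.11.15, pandas 2.3.3 and matplotlib 3.10.9.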

Additional observations from a re-analysis of the deposited data

Results flagged for a closer look

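In 9 cases a Wnt pathway gene was called in opposite directions against the parental line in 2 resistant lines, and the direct difference was called as well. Opposite calls against the same parental samples all but fix the direct call in advance, so it adds no support. The share of all genes with this pattern was not counted. Several calls against the parental line ended without single libraries, as given above. They include calls of WNT2B, WNT10B and GPC4, and those of CD44 except in Ov4Carbo4. WNT2B was higher in Ov4Carbo4 and lower in Ov4Carbo7, with a log2 difference between them of -3.1 (SE 0.44, adjusted p = 9.88e-05) with limma, or -0.73 on the log2(RPKM + 1) scale. WNT10B was lower in Ov4Carbo7 than in Ov4Carbo by -2.4 (SE 0.37, adjusted p = 0.000357) and than in Ov4Carbo4 by -3.93 (SE 0.37, adjusted p = 3.52e-06), or -0.62 and -1.48 on the log2(RPKM + 1) scale. TNFRSF19 was higher in Ov4Carbo4 than in Ov4Carbo by 7.39 (SE 0.49, adjusted p = 6.07e-07), and Ov4Carbo7 differed from Ov4Carbo4 by -5.8 (SE 0.49, adjusted p = 1.55e-06), or 2.89 and -2.77 on the log2(RPKM + 1) scale. For GPC4, Ov4Cis exceeded Ov4Carbo by 2.59 (SE 0.29, adjusted p = 2.98e-05). CD44 was higher in Ov4Carbo7 than in Ov4Carbo by 2.48 (SE 0.41, adjusted p = 0.000625) and than in Ov4Carbo4 by 3.39 (SE 0.41, adjusted p = 2.65e-05), and higher in Ov4Cis than in Ov4Carbo by 2.62 (SE 0.41, adjusted p = 0.000394). The comparisons between Ov4Carbo7 and Ov4Carbo4 lie within 1 title series, and those with Ov4Carbo lie partly across both.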

How the results depend on the processing

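Counts of Wnt genes called depended most on how low values were treated. The share of all genes called is given here only for the log2(RPKM + 1) scale. The other counts show how far the number of calls moved and are not set against a background. Restricting the test to genes with a mean log2 RPKM of at least 1 left 25 of the 41 genes, and 7 were called for Ov4Cis, 6 for Ov4Carbo, 7 for Ov4Carbo4 and 5 for Ov4Carbo7 against the parental line, 6 in Ov4Carbo4 and 5 in Ov4Carbo7 against Ov4Carbo, 9 between Ov4Carbo7 and Ov4Carbo4, 5 between Ov4Cis and Ov4Carbo, and 21 by the F-test. On the log2(RPKM + 1) scale the counts were 10, 8, 10 and 5 against the parental line, 4 and 5 against Ov4Carbo, and 4 between Ov4Cis and Ov4Carbo. In the same order, 7.58%, 4.76%, 6.34%, 7.79%, 5.45%, 4.96% and 5.77% of all genes were called on that scale. With the title series term, which rests on 1 Ov4Carbo library against the other 2, Ov4Carbo7 had 13 calls against the parental line. Leaving out each library in turn gave 13 to 16 calls for Ov4Cis, 16 to 20 for Ov4Carbo, 14 to 16 for Ov4Carbo4 and 16 to 20 for Ov4Carbo7 against the parental line, 13 to 16 and 7 to 12 for Ov4Carbo4 and Ov4Carbo7 against Ov4Carbo, 18 to 20 between the single-cell lines, 11 to 16 between Ov4Cis and Ov4Carbo, and 35 to 37 by the F-test.

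Of 1000 alternative values for the 16 genes against the parental line, 944 kept direction and side of the threshold, 39 lost and 7 gained a call, and 10 changed sign, all of them uncalled. Those were FZD8 in Ov4Cis (0.16 without parental replicate 3, with a range of -0.40 to 0.25 over the left-out libraries), WNT7A in Ov4Carbo (-0.34 to 0.12, the latter without Ov4Carbo replicate 3), PORCN in Ov4Carbo (0.14 with the title series term or without Ov4Carbo replicate 1, 0.0042 without parental replicate 2, with a range of -0.37 to 0.14), FZD2 in Ov4Carbo7 (0.53 with the title series term, and -0.18 to 0.091 over the left-out libraries, the latter without Ov4Carbo7 replicate 3) and FZD3 in Ov4Carbo (-0.050 without parental replicate 1, with a range of -0.11 to 0.15).

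With the replicate number as a block, 15 Wnt genes were called for Ov4Cis, 17 for Ov4Carbo, 16 for Ov4Carbo4 and 18 for Ov4Carbo7 against the parental line. The share of all genes called under the block is not given here, so these counts are not set against a background. Each of the 64 differences checked (16 genes in 4 lines), called or not, stayed on its side of the threshold. The labels do not pair the numbers, and the deviations of same-numbered samples correlated between -0.39 and 0.44 over 30 pairs, with no comparison over 0.1 in every pair.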
